A study of Homo sapiens with 6 samples.

Results

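BCL2 family proteins decide whether the mitochondrial outer membrane is opened during apoptosis. Pro-survival members hold the pore-forming effectors BAX and BAK1 in check, and BH3-only members, made or activated under stress, bind the pro-survival proteins or the effectors and tip the balance towards release of cytochrome c and caspase activation. Pancreatic carcinoma cells are known to rely on MCL1 and on BCL-xL, the long product of BCL2L1. The 10 genes described here were taken from the table by symbol, with earlier results of these data known: the pro-survival genes BCL2, BCL2L1 and MCL1, the effector genes BAX and BAK1, and the BH3-only genes BBC3 (PUMA), PMAIP1 (NOXA), BCL2L11 (BIM), BMF and BIK. All 10 were found, each on 1 line, among 60835 distinct symbols.

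The transcripts were measured by RNA sequencing of PANC-1, a human pancreatic carcinoma cell line of epithelioid form. All libraries came from cells in which SMAD4 had been knocked out. In 3 libraries the cells had been transfected with wild-type (WT) SMAD4 and in 3 with the R272K form, in which lysine replaces arginine. All 6 libraries are labelled day 3. The number of knockout clones is unstated in the sources used here. The series held no library of knockout cells without added SMAD4. Nothing says that replicates were separate cultures, and the p-values then reflect the spread between these libraries alone, which may be technical. The series title names methylation of SMAD4 arginine by the enzyme PRMT1, and the design sets the R272K form against WT. In bulk RNA, fewer cells that express a gene and less of its RNA per cell cannot be told apart.

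Depth was 14776148 to 17706201 counts per library. SMAD4 transcript stood at 83.4, 93.6 and 89.0 CPM (counts scaled to a common total, on TMM-scaled library sizes) in WT replicates 1 to 3 and at 40.6, 45.7 and 43.6 CPM in the R272K replicates. The log2 fold change was -1.03 (SE 0.075, adjusted p = 6.28e-06), so the form of SMAD4 and its amount cannot be told apart in any value below. The 6 epithelial markers summed to 3940 to 4450 TPM (transcript level scaled for gene length) with WT and 4720 to 5190 with R272K SMAD4, and the part of this in the results below was not tested. Most of that sum was the keratin gene KRT8, with a mean of 2420 TPM in WT and 3077 TPM in R272K libraries (log2 fold change 0.32, adjusted p = 0.0661). CDH1, which encodes the adhesion protein E-cadherin, rose from 2.59 ± 0.49 to 6.47 ± 0.313 CPM (SD, n = 3 each; log2 fold change 1.33, adjusted p = 0.00174). The log2 fold change was 0.39 for EPCAM (adjusted p = 0.338) and 0.11 for KRT18 (adjusted p = 0.583). For KRT19 it was -0.10 (adjusted p = 0.633) and for KRT7 -0.13 (adjusted p = 0.866). Leukocyte markers summed to at most 4.27 TPM, almost all from ITGAM, and endothelial, fibroblast and acinar or islet markers to at most 1.19. WT replicate 1 stood apart from the other libraries, with a score of -31.3 against -9.56 to 15.6 elsewhere on principal component 1, which held 32.2% of the variance, and each tested member is given with and without it.

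No BCL2 family gene was called different between R272K and WT SMAD4. A gene was called at a Benjamini-Hochberg adjusted p below 0.05 in edgeR's quasi-likelihood test over 15911 genes, and 1.21% of all tested genes were called. Of the 10 members 9 passed the filter on low counts and 0 were called, 0 also with DESeq2 and 0 with limma-voom. At an unadjusted p below 0.05 there were 2, PMAIP1 and BAK1, both lower with R272K SMAD4, where 14.3% of all tested genes had such a p. PMAIP1, BAK1 and BCL2L11 had groups that did not overlap in CPM, and so had 21.4% of all tested genes. The median absolute log2 fold change of the 9 was 0.12, the same to 2 decimals as over all tested genes. Across the 9, the 95% intervals of the fold, R272K over WT, reached from 0.774 to 1.46.

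The promoters of PMAIP1, BAK1 and BCL2L11 are shown because these were the members whose groups did not overlap in CPM. Each runs from 250 bases before to 50 after the start site, in the direction of transcription, from RefSeq on GRCh38.p14. The BCL2L11 window lies inside the gene as counted, whose deposited start is 111119378. Capitals mark TGACG or CGTCA, the core bound by ATF and CREB factors, and CAGAC or GTCTG, the SMAD box. Of the 10 members 8 were in the promoter table, and MCL1 and BIK were not.
PMAIP1, chr18:59899746-59900045, plus strand: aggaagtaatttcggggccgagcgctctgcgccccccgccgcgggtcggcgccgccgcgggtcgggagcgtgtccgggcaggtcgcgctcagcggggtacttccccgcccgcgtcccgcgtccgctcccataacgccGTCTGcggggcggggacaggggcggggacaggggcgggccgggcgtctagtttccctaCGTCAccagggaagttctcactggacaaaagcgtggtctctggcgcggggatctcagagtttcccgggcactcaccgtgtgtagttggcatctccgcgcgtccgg
BAK1, chr6:33580227-33580526, minus strand: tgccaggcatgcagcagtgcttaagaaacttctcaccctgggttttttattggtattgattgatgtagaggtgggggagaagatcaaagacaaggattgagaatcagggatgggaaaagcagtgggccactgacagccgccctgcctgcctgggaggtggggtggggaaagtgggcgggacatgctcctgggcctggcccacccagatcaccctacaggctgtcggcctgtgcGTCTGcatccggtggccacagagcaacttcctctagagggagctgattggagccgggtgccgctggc
BCL2L11, chr2:111120664-111120963, plus strand: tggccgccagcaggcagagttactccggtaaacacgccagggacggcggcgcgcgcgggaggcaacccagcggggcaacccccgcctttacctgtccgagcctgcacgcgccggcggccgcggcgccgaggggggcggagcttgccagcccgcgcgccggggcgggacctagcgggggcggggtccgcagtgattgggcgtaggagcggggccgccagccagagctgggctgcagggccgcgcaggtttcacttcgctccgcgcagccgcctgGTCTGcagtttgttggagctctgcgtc

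The PMAIP1 window held 1 ATF/CREB core, starting at -55 from the start site, and 1 SMAD box at -113. BAK1 and BCL2L11 held no ATF/CREB core and 1 SMAD box each, at -17 and at 24. Searched on both strands, the core was present in 24.6% and the SMAD box in 45.3% of 35116 promoters of this length. Among the 8 members with a window, 5 held the core in at least 1 of their windows (BCL2, BCL2L1, BAX, PMAIP1 and BMF) and 6 the SMAD box (BCL2L1, BAK1, BBC3, PMAIP1, BCL2L11 and BMF). BCL2L1 and BMF had 2 windows each. The full CRE palindrome TGACGTCA, which contains the core, was in none of these windows and in 1.85% of all promoters. These matches describe letters in a window only.

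Levels per gene length spanned more than 2 orders of magnitude. MCL1 was the most abundant, with 450 to 532 TPM over the 6 libraries and a median of 479. PMAIP1 (136 to 172 TPM), BAX (109 to 129), BCL2L1 (94.6 to 104) and BAK1 (77.4 to 92.5) followed. The lower tier held BMF (14.2 to 18.3 TPM), BBC3 (9.30 to 15.5), BCL2L11 (6.67 to 8.70), BCL2 (3.70 to 4.98) and BIK (1.08 to 2.40). Among the 9 neighbouring pairs in this order, the ranges over libraries overlapped only for BMF and BBC3. On CPM divided by the same gene length, 4 neighbouring pairs overlapped, so the order of PMAIP1, BAX, BCL2L1 and BAK1 was not beyond the spread on that scale.

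**Figure D1:**
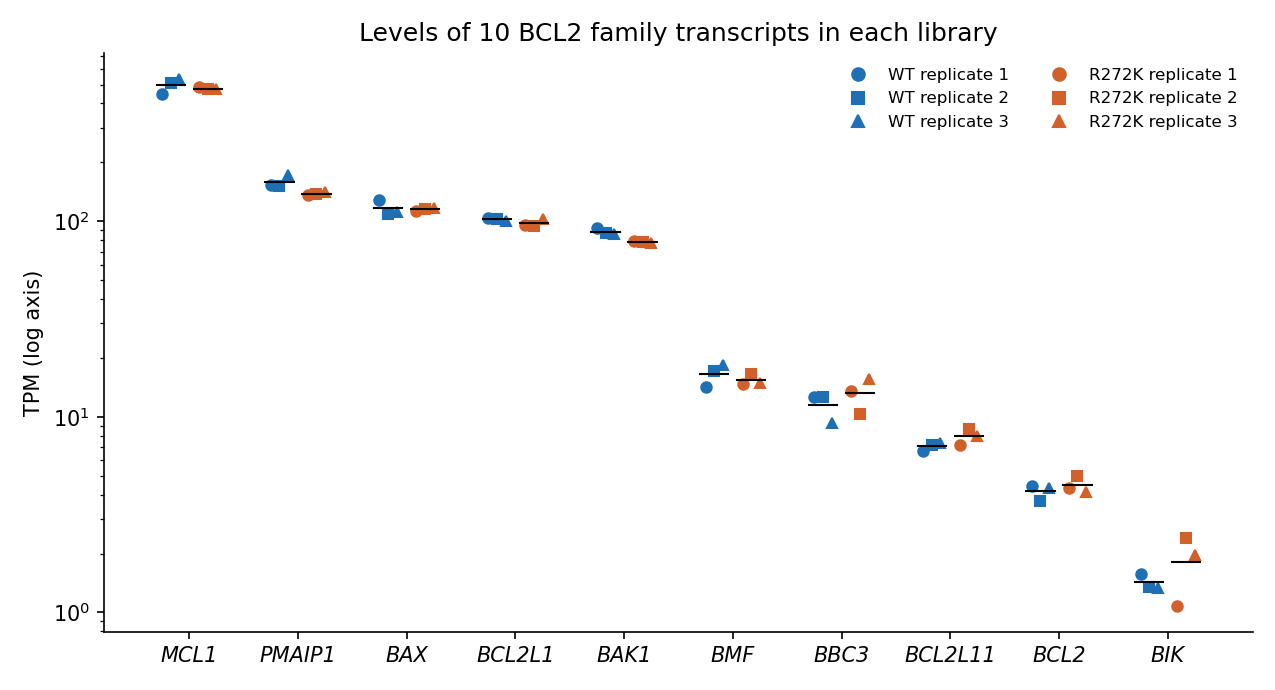
TPM (log axis) of the 10 genes in each of the 6 libraries, ordered by mean. Points are libraries, short lines are group means. MCL1 lies at 450 to 532 TPM in every library and BIK at 1.08 to 2.40, and the groups lie close together at every gene.

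As a share of the summed TPM of the 10 genes, MCL1 made up 46.5% to 51.1% in every library. PMAIP1 made up 15.2% to 16.5% in WT and 14.3% to 14.8% in R272K libraries, which did not overlap. The share of BCL2L11 did not overlap either and lay the other way, at 0.689% to 0.712% in WT and 0.756% to 0.924% in R272K libraries. In TPM itself the BCL2L11 groups overlapped, at 6.671 to 7.335 in WT and 7.169 to 8.695 in R272K libraries. How often shares of this kind separate by group among other genes was not computed. BAX held 10.7% to 13.3%, BCL2L1 9.62% to 10.8% and BAK1 8.10% to 9.56%, and each of the other members at most 1.75%. BCL2 itself held at most 0.529%. The summed TPM of the 10 genes was 968, 1004 and 1043 in WT replicates 1 to 3 and 949, 941 and 956 with R272K SMAD4. The 5 BH3-only genes together stood at 196 ± 10.7 TPM with WT and 176.5 ± 5.09 TPM with R272K SMAD4, the effectors at 205 ± 14.1 and 194 ± 1.66, and the pro-survival genes at 604 ± 41.2 and 579 ± 6.38 (SD, n = 3 each). The WT and R272K ranges overlapped for the pro-survival sum, and did not for the BH3-only and effector sums or the sum of all 10. The effector ranges lay close, at 196 TPM in WT replicate 2 and 194.9 in R272K replicate 3. Among single tested genes 21.4% had groups that did not overlap in CPM, and no such share was computed for sums. These sums leave out other family genes, among them BOK (36.5 to 42.2 TPM) and BCL2A1 (125 to 155 TPM). PMAIP1 made up most of the BH3-only sum, with a mean of 159 TPM in WT and 138 TPM in R272K libraries. BMF also had a lower mean TPM with R272K SMAD4, and BBC3, BCL2L11 and BIK had higher ones.

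Among the pro-survival genes, MCL1 encodes a short-lived protein that binds NOXA and BIM. It stood at 699, 735 and 748 CPM in WT replicates 1 to 3 and at 703, 689 and 673 CPM in R272K replicates 1 to 3. The R272K libraries took the lower end and the groups overlapped, since R272K replicate 1 lay above WT replicate 1. The log2 fold change was -0.08 (SE 0.058, 95% interval -0.20 to 0.05, adjusted p = 0.572). Without WT replicate 1 it was -0.11 (adjusted p = 0.0694). BCL2L1, whose long product BCL-xL blocks BAX and BAK1, stood at 115, 106 and 101 CPM with WT and 99.4, 98.7 and 105 CPM with R272K SMAD4. These ranges overlapped and the log2 fold change was -0.09 (95% interval -0.24 to 0.06, adjusted p = 0.606), and -0.033 (adjusted p = 0.822) without WT replicate 1. BCL2, the founding member of the family, stood at 11.3, 8.72 and 10.02 CPM with WT and 10.2, 11.9 and 9.64 CPM with R272K SMAD4. Its groups were interleaved, with a log2 fold change of 0.07 (95% interval -0.21 to 0.36, adjusted p = 0.84). Without WT replicate 1 it was 0.18 (adjusted p = 0.575), and without WT replicate 2 or R272K replicate 2 it was -0.02.

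The effectors BAX and BAK1 oligomerise in the outer membrane and form the pore. BAX stood at 59.8, 47.0 and 47.0 CPM in WT replicates 1 to 3 and at 48.7, 50.2 and 50.03 CPM in the R272K replicates. WT replicate 1 was high, and the other WT libraries lay below every R272K library. The log2 fold change was -0.05 (95% interval -0.25 to 0.15, adjusted p = 0.852) with all libraries and 0.08 (adjusted p = 0.60) without WT replicate 1. BAK1 stood at 69.9, 60.6 and 59.0 CPM with WT and 55.7, 55.6 and 53.7 CPM with R272K SMAD4. All WT libraries lay above all R272K libraries, WT replicate 1 again being the highest. Means were 63.2 ± 5.89 CPM (SD, n = 3) for WT and 55.0 ± 1.16 for R272K, and the log2 fold change was -0.20 (SE 0.078, 95% interval -0.37 to -0.03, adjusted p = 0.26). Without WT replicate 1 it was -0.12 (adjusted p = 0.298).

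**Figure D2:**
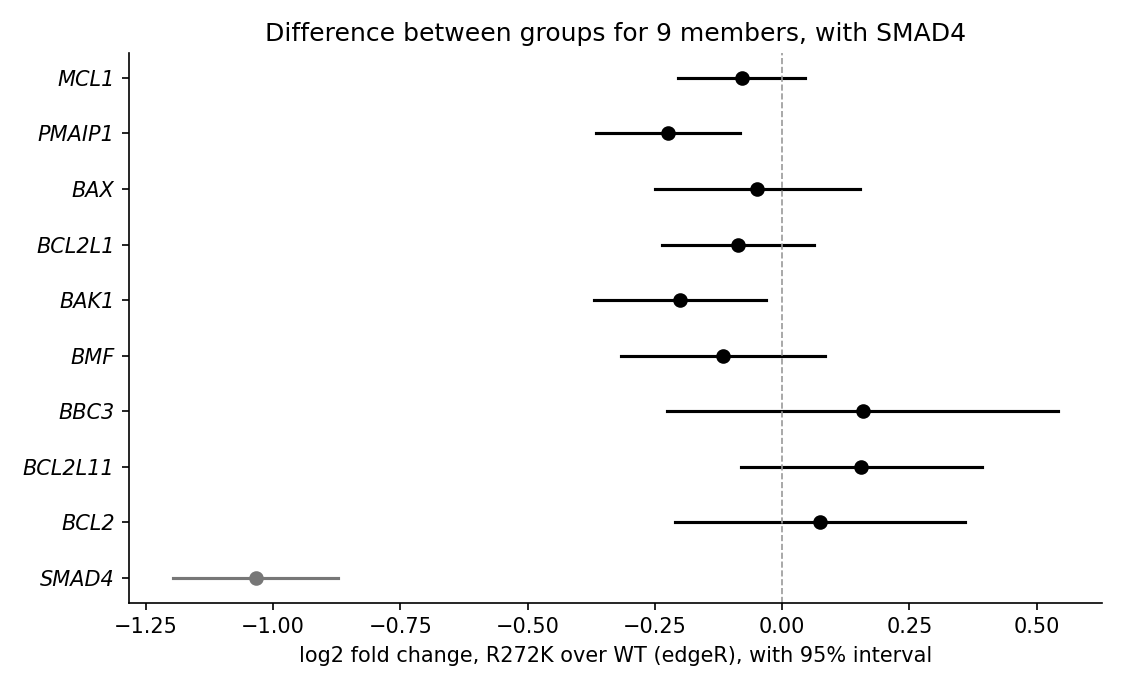
Log2 fold change, R272K over WT SMAD4, from the edgeR fit for the 9 tested members and SMAD4 (grey). Bars are 95% intervals for each gene alone; those of PMAIP1 (-0.37 to -0.08) and BAK1 (-0.37 to -0.03) lie below 0, neither with an adjusted p below 0.05, and SMAD4 lies at -1.03.

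Of the BH3-only genes, PMAIP1 had the smallest p of the family. It encodes NOXA, which binds MCL1 and promotes its degradation. PMAIP1 stood at 99.6, 91.4 and 101 CPM in WT replicates 1 to 3 and at 82.1, 83.4 and 84.4 CPM in the R272K replicates. Every R272K library lay below every WT library. Means were 97.2 ± 5.10 CPM (SD, n = 3) for WT and 83.3 ± 1.16 for R272K, and the log2 fold change was -0.22 (SE 0.066, 95% interval -0.37 to -0.08, adjusted p = 0.138). By p it ranked 526 of the 15911 genes tested. Without WT replicate 1 PMAIP1 fell (log2 fold change -0.21, adjusted p = 0.0173), the single member called in that fit, in which 5.36% of all tested genes were called. Over 17 alternative fits the log2 fold change of PMAIP1 lay between -0.27 and -0.18, with adjusted p between 0.0173 and 0.44. As a log2 ratio of TPM, MCL1 over PMAIP1 was 1.55, 1.75 and 1.63 in WT replicates 1 to 3 and 1.84, 1.79 and 1.74 with R272K SMAD4, and these ranges overlapped.

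BCL2L11 encodes BIM, which binds every pro-survival member and can activate the effectors directly. It stood at 11.9, 11.8 and 11.9 CPM with WT and 12.0, 14.6 and 13.2 CPM with R272K SMAD4. The groups were separate only by a hair, since R272K replicate 1, at 11.95 CPM, lay next to WT replicate 1, at 11.92. The log2 fold change was 0.16 (95% interval -0.08 to 0.39, adjusted p = 0.556), and also 0.16 (adjusted p = 0.569) without WT replicate 1. In TPM the groups overlapped, with WT replicates at 6.67, 7.15 and 7.33 and R272K replicate 1 at 7.17. BBC3, which encodes the BH3-only protein PUMA, stood at 7.98, 7.37 and 5.31 CPM with WT and 8.01, 6.12 and 8.99 CPM with R272K SMAD4, with interleaved groups. Among the 9 tested members it had the widest interval, -0.23 to 0.54 around 0.16 (adjusted p = 0.735). The estimate for BBC3 was 0.29 without WT replicate 1 (adjusted p = 0.426), 0.30 without R272K replicate 2, 0.033 without R272K replicate 3 and 0.0013 without WT replicate 3. BMF encodes a BH3-only protein that binds dynein light chain. It stood at 22.8, 25.4 and 26.5 CPM with WT and 22.1, 24.8 and 21.9 CPM with R272K SMAD4. Its groups overlapped, with a log2 fold change of -0.12 (95% interval -0.32 to 0.08, adjusted p = 0.609), and -0.18 (adjusted p = 0.295) without WT replicate 1. BIK, a BH3-only gene whose product acts at the endoplasmic reticulum, had 9, 6 and 6 counts with WT and 5, 11 and 9 with R272K SMAD4. It did not pass the filter, and with no filter its log2 fold change was 0.31 (adjusted p = 0.867), so a difference was not detectable at this depth.

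**Figure D3:**
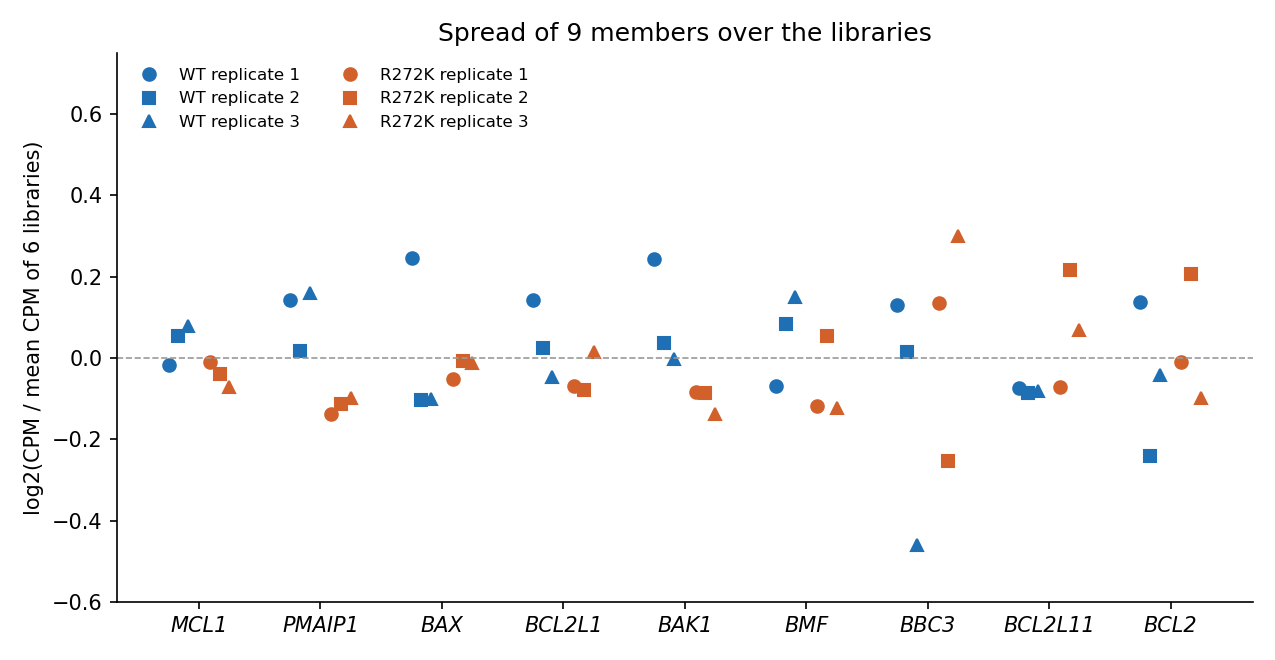
Log2 of each library's CPM over the mean of the 6 libraries, for the 9 tested members. Points are libraries by group and replicate. R272K libraries lie below WT libraries at PMAIP1 and BAK1, WT replicate 1 is the highest library at BAX, BCL2L1 and BAK1, and the groups are interleaved at BBC3 and BCL2.

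The position of WT replicate 1 moved with gene length. Across 15911 genes, which are not independent replicates, its log2 ratio to the other WT libraries had a Spearman's rho of -0.412 with gene length. Among members shorter than the median, the ratio was 0.36 for BIK, 0.35 for BAX, 0.33 for BBC3 and 0.23 for BAK1. Their lengths were 0.273, 0.389, 0.529 and 0.634 of the median tested gene. The BIK ratio rests on 9, 6 and 6 counts in WT replicates 1 to 3. BCL2L1, with a relative length of 0.933, had a ratio of 0.155. For members longer than the median the ratio was -0.09 for MCL1, -0.19 for BMF and 0.01 for BCL2L11, but 0.28 for BCL2, the longest of the 10. PMAIP1, with a relative length of 0.544, had a ratio of 0.05. With each library's length trend removed, the log2 fold change was -0.18 for PMAIP1 (adjusted p = 0.117), -0.16 for BAK1 (adjusted p = 0.165) and 0.02 for BAX (adjusted p = 0.90).

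**Figure D4:**
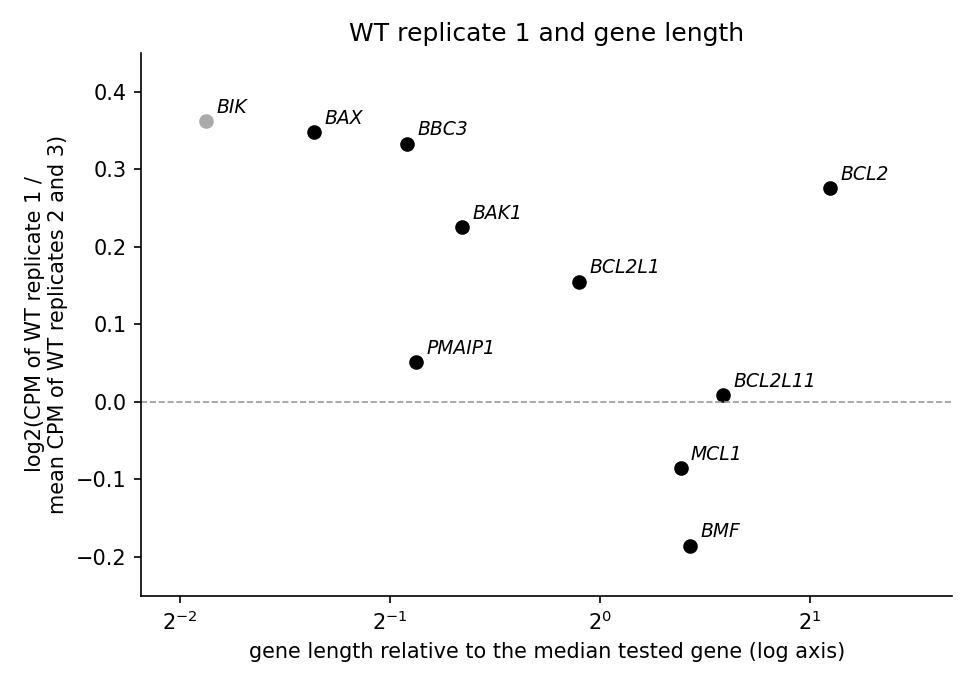
Log2 ratio of CPM in WT replicate 1 to the mean of WT replicates 2 and 3, against gene length relative to the median tested gene (log axis). Each point is 1 of the 10 genes, BIK (untested) in grey. BAX and BBC3 lie at 0.35 and 0.33, BMF at -0.19, and BCL2 at 0.28 despite its length.

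Some members share sequence with neighbours, and no source used here says whether reads were counted by strand. In the deposited coordinates, PMAIP1, BAX and BIK overlapped no other gene. BCL2L11 (chromosome 2, 111119378 to 111168445, plus strand) lay inside MIR4435-2HG, a long non-coding RNA gene on the opposite strand with 939 to 1170 counts per library. In GENCODE release 29 their exons shared 727 bases of 6658, so reads of BCL2L11 are uncertain there. The deposited coordinates are not all those of release 29. MIR4435-2HG starts at 111006015 as deposited and at 111036776 in release 29, so the bases shared in the counting may differ. BCL2L1 shared 1424 of 3314 exonic bases with ABALON on the opposite strand, which had at most 4 counts. BMF shared 461 of 5447 with BMF-AS1, which had 0 counts in every library. MCL1 (chromosome 1, 150560895 to 150579738, minus strand, as deposited) overlapped the end of ADAMTSL4, with 128 to 205 counts against 10332 to 12252 for MCL1. In release 29 MCL1 begins at 150574551, beyond the deposited end of ADAMTSL4 at 150560937.

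Other genes of the BCL2 family were also not called. Of 7 listed, 5 were tested and 0 were called. DESeq2 and limma-voom also called 0, and 0 had an unadjusted p below 0.05. In the main edgeR fit 1.21% of all tested genes were called and 14.3% had such a p. BCL2A1, a pro-survival gene that NF-κB induces, lay near PMAIP1 in level, with 143 ± 11.5 TPM (SD, n = 3) in WT and 135 ± 9.01 in R272K libraries, and a log2 fold change of -0.10 (adjusted p = 0.683). BAD, a BH3-only gene, had a log2 fold change of -0.16 (adjusted p = 0.802) and BCL2L2, which encodes BCL-w, of 0.02 (adjusted p = 0.934). Their median log2 fold change was 0.00, as over all tested genes. Of 6 related genes 4 were tested and 0 called, and 2 of the 4, BNIP3 and BNIP3L, had an unadjusted p below 0.05. BNIP3, a mitophagy receptor gene, stood at 136, 120 and 121 CPM with WT and 147, 158 and 164 CPM with R272K SMAD4 (log2 fold change 0.31, adjusted p = 0.0515). With DESeq2 and in 7 other alternative fits BNIP3 passed the threshold. Its relative BNIP3L had a log2 fold change of 0.17 (adjusted p = 0.243) and BCL2L13 of -0.07 (adjusted p = 0.656).

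Downstream of the mitochondria, 17 listed genes were tested and 0 were called, among them genes of the apoptosome, the caspases and their inhibitors. The main fit called 1.21% of all tested genes. Of the 17, 4 had an unadjusted p below 0.05, where 14.3% of all tested genes had such a p. Their median log2 fold change was 0.04. DESeq2 and limma-voom each called 1, BIRC3. BIRC3, an inhibitor of apoptosis that NF-κB induces, stood at 659, 674 and 700 CPM with WT and 819, 813 and 784 CPM with R272K SMAD4 (log2 fold change 0.25, adjusted p = 0.0572). APAF1, the scaffold of the apoptosome, had a log2 fold change of 0.32 (adjusted p = 0.197), and the caspase substrate gene PARP1 of 0.15 (adjusted p = 0.26). APAF1 was lowest in WT replicate 1, at 35.1 CPM against 48.4 to 55.8 in the other libraries. Of 8 genes that bind the members or set their turnover, 0 were called by edgeR, DESeq2 or limma-voom. An unadjusted p below 0.05 was seen for 2 of the 8 and for 14.3% of all tested genes. The dynein light chain gene DYNLL1 had a log2 fold change of -0.21 (adjusted p = 0.278). For USP9X, a deubiquitinase that stabilises MCL1, it was 0.20 (adjusted p = 0.282), and for the BAK1 partner gene VDAC2 -0.12 (adjusted p = 0.46).

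Among 12 listed genes, mostly transcription factors known to drive BH3-only genes, 2 fell, 0 rose and the other 10 did not pass. Over all tested genes 1.21% were called. The median log2 fold change of the 12 was -0.07. ATF3, a stress-induced factor that can bind the PMAIP1 promoter, fell from 36.5, 33.9 and 31.4 CPM in the WT replicates to 16.1, 17.4 and 16.4 CPM in the R272K replicates (log2 fold change -1.03, adjusted p = 3.2e-05). DDIT3, which encodes the stress factor CHOP, fell from 24.8, 18.7 and 18.02 to 11.2, 10.4 and 11.7 CPM (-0.89, adjusted p = 0.0038). WT replicate 1 was the highest library for both genes. Both were called in all 17 alternative fits. ATF4, the main factor of the integrated stress response, had a log2 fold change of -0.19 (adjusted p = 0.285), and its target TRIB3 of -0.23 (adjusted p = 0.277). ATF3 transcript was 0.49-fold and PMAIP1 transcript 0.856-fold of the WT level in the same libraries, and any link between them was not tested.

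**Figure D5:**
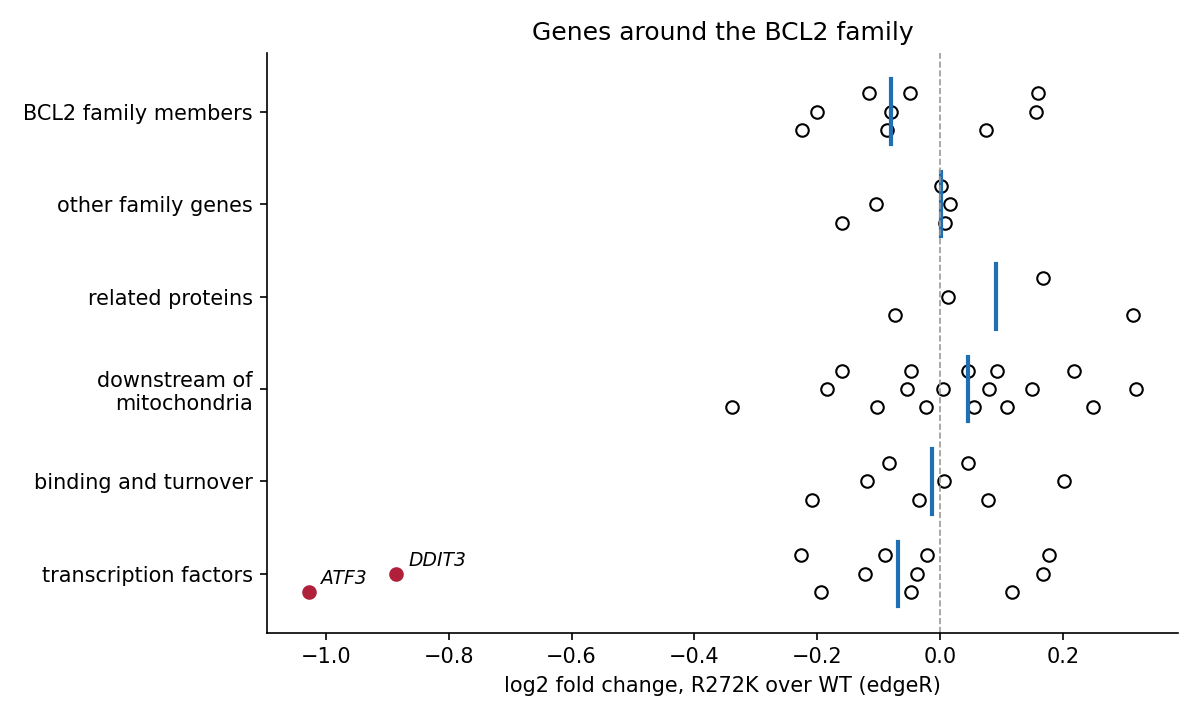
Log2 fold change, R272K over WT SMAD4, of tested genes by list. Each circle is a gene, filled where the adjusted p is below 0.05, and blue lines are list medians. ATF3 (-1.03) and DDIT3 (-0.89) are the filled circles, and the 9 members lie between -0.22 and 0.16.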

How the data were processed

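RNA of 6 libraries was enriched for poly(A), fragmented and primed with random hexamers, per the labels' protocols. The submitters' processing notes name HTSeq 0.10.0, HISAT2 2.1.0, fastp 0.23.0 and SAMtools, and the build GRCh38, without settings, strand or annotation release. The authors deposited raw counts per gene symbol and TPM, a length-scaled signal made from the same counts. Each of 60835 symbols was used once, because 453 were repeated on 1875 extra lines. TPM summed to 1000000 over distinct symbols, and relative gene length was recovered from count over TPM.

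Genes passing edgeR's filter (minimum count 10, minimum total 15) were TMM-scaled, and the main test was edgeR's quasi-likelihood test (robust, two-sided) with group as the only term and Benjamini-Hochberg adjustment over 15911 genes. The SE is the log2 fold change divided by the square root of F, and 95% intervals use the test's degrees of freedom, for each gene alone. Alternatives were other scalings and filters, DESeq2, limma-voom, limma on log2 TPM with a pseudocount of 1 or 0.1, the replicate number as a block, a length offset and each library left out. The procedure was tested on simulated data. The members and gene lists were chosen with earlier results of these data known. Named genes were all members, SMAD4, and in each other list the called genes and up to 3 others with the smallest p; 1 such gene and 1 list are not reported here. Software was DESeq2 1.42.0, limma 3.58.1 and edgeR 4.0.16 under R 4.3.3, with matplotlib 3.10.9, pandas 2.3.3 and numpy 2.4.6 under Python 3.11.15. Chi-square per degree of freedom between libraries of a group was 1.83 or more, so none was counted as a repeat. This value cannot tell separate cultures from separate libraries of the same culture.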

Additional observations from a re-analysis of the deposited data

How the results depend on the processing

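The count of 0 called members held in 16 of 17 alternative fits; without WT replicate 1 it was 1, PMAIP1, and over the fits with 1 library left out it ranged from 0 to 1. The sign of the log2 fold change held in all 17 fits for MCL1, BCL2L1, BAK1, PMAIP1, BMF, BBC3 and BCL2L11, but with 1 library left out BBC3 ranged from 0.0013 to 0.30 and BCL2L11 from 0.079 to 0.22. BAX went from -0.05 to 0.024 with the length trend removed, and from -0.11 to 0.079 over fits with 1 library left out, above 0 only without WT replicate 1. BCL2 ranged from -0.020 to 0.18 over these fits, below 0 without WT replicate 2 or R272K replicate 2. The causes were not tested. Over the table, 193 calls became 474 with no filter, 619 with the length trend removed, and 104 and 101 on log2 TPM with pseudocounts of 1 and 0.1, and ranged from 55 to 875 with 1 library left out, the highest without WT replicate 1. Related proteins had 1 call (BNIP3) with RLE, upper quartile or library size scaling, no filter, DESeq2, the replicate block or the length trend removed, and 0 to 1 with a library left out. Genes downstream of mitochondria had 1 call (BIRC3) with upper quartile scaling, DESeq2, limma-voom or the length trend removed, 2 with no filter (with APAF1), and 0 to 2 with a library left out. The count of overlapping neighbours in level went from 1 to 4 on CPM over length.

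Same-numbered WT and R272K libraries did not deviate together (correlations -0.065, -0.00715 and -0.012 across genes). Whether the numbers pair the samples is unstated in the sources used here, and these correlations cannot settle it. With the replicate block 262 genes were called and 0 members, and the log2 fold change of PMAIP1 was -0.22 (adjusted p = 0.183). Depth limits BIK, at 5 to 11 counts per library.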

Other observations

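Of the wider family, 4 genes had too few counts to be tested. HRK, a BH3-only gene, had 14, 12 and 8 counts in WT replicates 1 to 3 and 5, 5 and 4 in the R272K replicates. BCL2L14 had 2, 3 and 2 counts with WT and 7, 8 and 4 with R272K SMAD4. BCL2L15 had 11, 7 and 17 with WT and 5, 7 and 9 with R272K SMAD4, and BCL2L10 had at most 2 counts in any library. HRK and BCL2L14 had groups that did not overlap, in opposite directions, at counts where these libraries give little precision. Among tested genes 21.4% had groups that did not overlap in CPM, and no such share was computed for untested genes.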
